A study of Mus musculus with 13 samples.

Results

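Jejunal epithelial cells of mice that skipped breakfast were compared, gene by gene, with those of mice that skipped dinner. In the breakfast-skipping pattern (BSF) food was offered from ZT16 to ZT24, and in the dinner-skipping pattern (DSF) from ZT12 to ZT20, where ZT is zeitgeber time, counted in hours from lights on. Each pattern thus had a single block of 8 hours, placed 4 hours later in BSF than in DSF, with 4 hours in common. Both ran for 2 weeks, with the mice in one environment and cage. The comparison used 4 of the 13 libraries of the study, chosen by their labels: BSF replicates 1 and 2, and the 2 DSF libraries, called a and b here because their columns carry other numbers than their labels. The lunch-skipping pattern (LSF, 3 libraries, 2 meals, at ZT12 to ZT16 and at ZT20 to ZT24) is set beside them where its values place a difference. Cells that carried the epithelial surface protein EpCAM, and lacked CD45, CD11b, CD3 and B220, were sorted from digested jejunum, and their polyadenylated RNA was sequenced. The labels used here state no strain, sex, age, genotype or hour of sampling. The replicates are labelled as biological, but nothing says that each came from a separate mouse. The p-values thus measure the spread between libraries only. That spread was estimated over all 13 libraries of the study, among them a group labelled con whose feeding the labels do not state.

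The small intestine keeps its own circadian clock, a loop in which Bmal1 (Arntl) and Clock switch on the Period and Cryptochrome genes, whose proteins then repress them, with Rev-erb (Nr1d1, Nr1d2) adjusting Arntl. Feeding time is a strong timing cue for the clocks of digestive organs, and many genes of nutrient uptake, detoxification and defence follow a daily course in the gut. Enterocytes absorb sugars, amino acids, minerals and fat, pack fat into chylomicrons, and meet microbes and foreign chemicals at the same surface. With the hour of sampling unstated, a shift in timing within the day and a change in daily mean cannot be told apart.

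Breakfast and dinner skipping left epithelial cells that differed in 1720 of the 14300 genes tested, which is 12% of them. In BSF 825 genes were higher (5.77%) and 895 lower (6.26%) at an adjusted p under 0.05 (edgeR quasi-likelihood test, Benjamini-Hochberg), the rule for every call below. Clock repressors, chylomicron apolipoproteins, fructose genes and the oxidase gene Cyp1a1 were among the genes higher in BSF. Interferon-stimulated genes, immediate early genes, antimicrobial defence genes and glutathione transferases were among the lower. At least 2-fold changes made up 587 of the calls, 315 higher and 272 lower, and 401 of them had a mean under 5 CPM, the usual count scaled to library depth, here with TMM factors. Among the 4115 genes with a mean of at least 50 CPM, 649 were called and 18 of those changed at least 2-fold, so most differences in abundant transcripts were modest. The median log2 fold change over all genes was -0.00052.

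The 4 libraries held 7127769 (BSF 1), 8589351 (BSF 2), 7463941 (DSF a) and 7339563 (DSF b) counts, and the LSF libraries 7592112 to 8385260. In a principal component analysis of these 3 groups, the first component (44.1% of the variance) put the BSF libraries at -36.95 and -34.16 and the DSF libraries at 5.92 and 5.61. Replicates thus lay close together. Leaving out a single library reduced the number of calls to 920 without BSF 1, 876 without BSF 2, 798 without DSF a and 919 without DSF b. DESeq2's Wald test called 1029 genes, of which 1016 were among the 1720. An exact permutation test of a single value with 2 libraries against 2 cannot give a two-sided p below 0.333, so single genes rest on the spread pooled over all genes and libraries. The BSF and DSF libraries also enter the side comparisons with LSF, in which 4190 genes (29.3%) differed between BSF and LSF and 2271 (15.9%) between LSF and DSF.

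**Figure D1:**
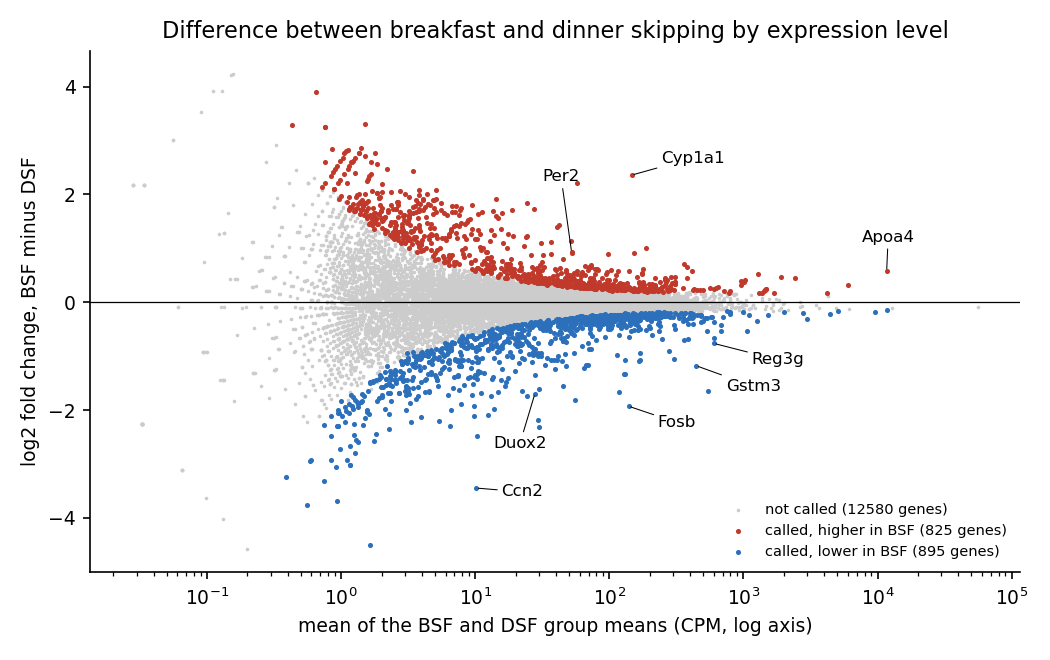
Log2 fold change of BSF against DSF (vertical) by the mean of the group means in CPM (horizontal, log axis) for the 14300 genes tested. Red points are the 825 genes called higher in BSF and blue points the 895 called lower, and Cyp1a1 and Ccn2 lie at the edges of the cloud.

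Because the cells were sorted on EpCAM, lists of markers for 14 other cell types and tissues were read beside the epithelial genes. Epcam, the sort marker, was at 340.4 and 329 CPM in BSF and 384 and 366 CPM in DSF, a log2 difference of -0.16 ± 0.07 (SE) that did not pass the test (edgeR adjusted p = 0.0949). With the con libraries left out, or with the fit limited to BSF and DSF, Epcam passed as lower in BSF (edgeR adjusted p = 0.00933 and 0.0153). Ptprc, which encodes CD45, was at 12.8 and 14.8 CPM in BSF and 16.5 and 19.1 CPM in DSF (edgeR adjusted p = 0.177). Vil1, which encodes the microvillus protein villin, was at 788 and 809 CPM against 844 and 821 CPM. Epcam and Vil1 were thus present in all 4 libraries, beside a low level of the CD45 transcript. Cdh1, a further epithelial marker, was called lower in BSF (log2 -0.18, edgeR adjusted p = 0.0294). The epithelial markers Apoa1, Fabp1, Krt20 and Muc13 were called higher, so such markers moved both ways.

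Transcripts of brain, muscle, matrix and leukocytes nevertheless differed between the groups, and not in one direction. Called were 68% of brain, 75% of muscle, 62.5% of matrix and 50% of leukocyte genes tested, beside 12% of all genes. For enteric neurons and glia the share was 30%. Of 25 neuronal and glial genes tested, 17 were called higher in BSF and none lower, with a median log2 difference of 1.02 and a summed level of 452 and 426 CPM in BSF, 298 and 294 CPM in DSF and 293 to 301 CPM in LSF. Heart and striated muscle genes were lower in 17 of 24 and higher in 1, with a summed level of 481 and 513 CPM in BSF, 907 and 896 CPM in DSF and 863 to 984.5 CPM in LSF. Brain transcripts were therefore highest, and muscle transcripts lowest, in the BSF libraries among these 3 groups. Of 16 fibroblast and matrix genes, 10 were lower in BSF (65.7 and 64.8 CPM in sum, against 139.6 and 111 CPM in DSF and 128 to 177 CPM in LSF). Of 24 leukocyte genes, 12 were lower (313 and 339.8 CPM in sum, against 499 and 485 CPM in DSF and 480.4 to 490.1 CPM in LSF). Enteric neuron and glia genes had 3 of 10 higher, but 1 without any single library and 1 in DESeq2's Wald test. Called shares were 14.3% of 14 kidney tubule, 20% of 5 smooth muscle, 20% of 5 pancreatic acinar and 33.3% of 3 erythroid genes tested. None of the tested genes for melanocytes, endothelium, hepatocytes, skin keratinocytes or adipocytes was called by edgeR, DESeq2 or voom with all libraries in the fit. In edgeR 1 keratinocyte gene and none of the others had an unadjusted p under 0.05. Only 4 of 15 hepatocyte genes and 1 of 8 adipocyte genes were tested. The untested hepatocyte gene Hp had 1 count over the BSF libraries and 47 over the DSF libraries. Leaving out 1 library lowered the counts to 11 to 12 brain, 11 to 13 muscle, 7 to 10 leukocyte and 3 to 8 fibroblast genes, and DESeq2's Wald test called 11 brain and 3 fibroblast genes. The fibroblast count was 5 without BSF 1, 6 without BSF 2 and 3 without DSF a.

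Single members show the size of these differences. Myh6, the cardiac myosin heavy chain, was at 56.8 and 56.1 CPM in BSF and 185 and 174 CPM in DSF, 3.18-fold lower in BSF (edgeR adjusted p = 3.08e-22). Acta1, the skeletal muscle actin, went the other way, with 94.9 and 95.1 CPM in BSF, 20.3 and 20.5 CPM in DSF and a mean of 51.8 ± 1.04 CPM (SD, n = 3) in LSF (edgeR adjusted p = 7.90e-25). The 2 muscle genes thus moved apart, each with its groups well separated. Map2, a neuronal cytoskeleton gene, was at 19.9 and 21.3 CPM in BSF and 7.03 and 5.67 CPM in DSF, 3.24-fold higher in BSF (edgeR adjusted p = 4.35e-10). Gzma, a granule enzyme of cytotoxic lymphocytes, was at 40.6 and 50.4 CPM in BSF and 79.6 and 80.2 CPM in DSF, a log2 difference of -0.80 ± 0.10 (edgeR adjusted p = 5.61e-09). Neither of these had a BSF library within the range of DSF. Some defining markers were absent: the muscle genes Myh1 and Myh4, the interneuron gene Pvalb of the brain list and the hepatocyte gene Alb had no count in any of the 4 libraries. Of the same brain list, Slc17a7, the vesicular glutamate transporter, had 1 count over the BSF libraries and 5 over the DSF libraries, and Mog, a myelin gene, 7 and 2. Cd4 had 6 counts over the BSF libraries and 10 over the DSF libraries. In bulk RNA, fewer cells of a type and less RNA per cell cannot be told apart. Genes of these lists made up 63 of the 1720 calls, and without the listed genes 1649 genes were called. How far such RNA contributes to calls outside the lists was not tested.

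**Figure D2:**
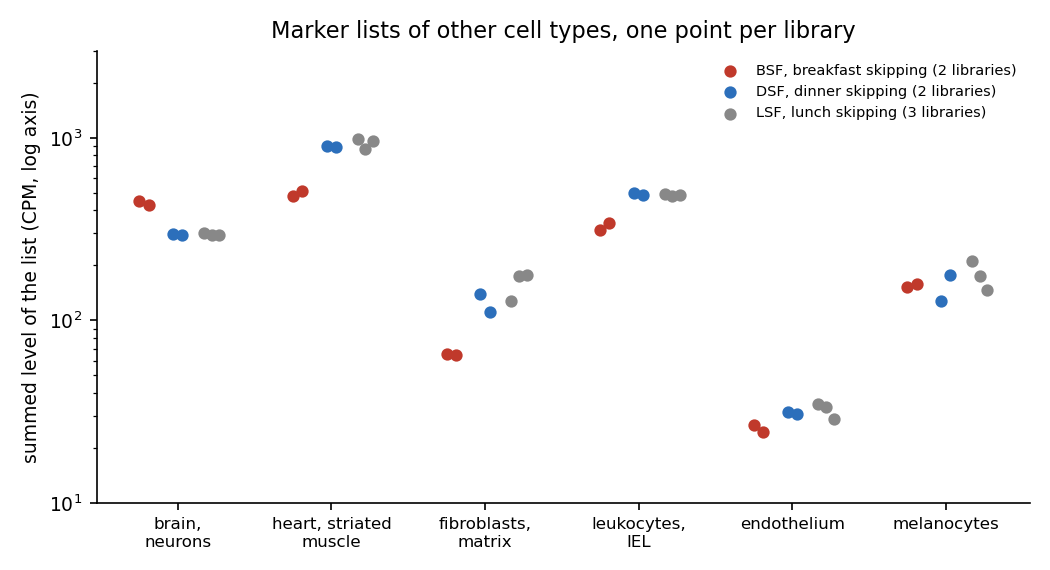
Summed level of 6 marker lists (CPM, log axis), with 1 point per library for BSF (red), DSF (blue) and LSF (grey). Brain genes sum to 452 and 426 CPM in BSF against 298 and 294 CPM in DSF, while muscle, fibroblast and leukocyte genes are lower in BSF.

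Outside those lists and among genes of at least 5 CPM in BSF, the largest rise belonged to Cyp1a1 (chr9:57687928-57703824, plus strand, GRCm38), the oxidase that the aryl hydrocarbon receptor induces. Cyp1a1 was at 257 and 236 CPM in BSF, 48.1 and 47.9 CPM in DSF and 71.9 ± 4.82 CPM (SD, n = 3) in LSF. Both BSF libraries stood far above all others of these 3 groups, and Cyp1a1 was 5.13-fold higher in BSF than in DSF (log2 2.36 ± 0.08, edgeR adjusted p = 2.54e-29). The next 11 genes by size of rise, at log2 differences of 1.90 to 2.08, included Nrsn1, Tub, Dnajc6, Ina, Vat1l, Ndn, Galnt16, Vsnl1 and Aatk. Of those known from neurons, Ina encodes an intermediate filament and Dnajc6 a factor of synaptic vesicle recycling. Ndn, which encodes necdin, had 22.9 and 21.95 CPM in BSF and 6.63 and 5.28 CPM in DSF (log2 1.91 ± 0.19, edgeR adjusted p = 4.28e-11). These genes moved in the same direction as the brain list, whose part in their rise was not tested.

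Outside the other-tissue lists, and with unnamed gene models left out, the 12 largest falls among genes of at least 5 CPM in DSF were those of Ccn2, Lox, Col6a3, Nos2, Cfap77, Flnc, Ly6a, Thbs1, Fosb, Axl, Lrrc10 and Spp1. Lox (which crosslinks collagen), Col6a3 (a collagen chain) and Thbs1 and Spp1 (matrix proteins) fell together with the fibroblast list, and Flnc and Lrrc10 are known from striated muscle, whose list was also lower. Cfap77, a gene of the ciliary axoneme, was at 9.83 and 11.4 CPM in BSF, 46.6 and 50.3 CPM in DSF and 49.2 ± 3.62 CPM in LSF, 4.54-fold lower in BSF than in DSF (edgeR adjusted p = 5.45e-14). Ly6a, the Sca-1 surface protein that interferon induces, was at 4.71 and 4.79 CPM in BSF and 21.1 and 19.4 CPM in DSF (log2 -2.09 ± 0.19, edgeR adjusted p = 7.89e-13). Replicates of both genes lay close together, while a lack of overlap between BSF and DSF was required of all 12 genes named here. Ccn2, a growth factor gene of stretched and matrix-producing cells, was at 1.48 and 1.89 CPM in BSF but 32.5 and 4.88 CPM in DSF. Its log2 difference of -3.45 rested on DSF a, without which it was -1.51 (edgeR adjusted p = 0.332), and voom did not call it. Thbs1, at 2.15 and 3.01 CPM against 12.9 and 8.18 CPM, lost its call without BSF 1 or DSF a (edgeR adjusted p up to 0.131), and also in DESeq2's Wald test (adjusted p = 0.112). Spp1, at 34.9 and 15.0 CPM in BSF and 98.7 and 71.6 CPM in DSF, lost its call in that test too (adjusted p = 0.0674). The part of fibroblast and muscle RNA in these falls was not tested.

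Clock genes differed in a split pattern: several repressors and output factors were higher in BSF, 3 repressors were lower, and the core activators Arntl and Clock did not pass the test. Per2 (chr1:91415982-91459324, minus strand), a Period gene that responds to outside cues, was at 66.1 and 71.0 CPM in BSF and 35.1 and 37.1 CPM in DSF. It was 1.90-fold higher in BSF (log2 0.93 ± 0.10, edgeR adjusted p = 1.79e-10), and the LSF mean of 52.0 ± 0.983 CPM (SD, n = 3) lay between the groups. Both BSF libraries were above every DSF library.

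The Cryptochromes both rose, but stood differently against LSF. Cry1 (chr10:85131700-85185064, minus strand) was at 47.8 and 49.1 CPM in BSF and 31.9 and 32.5 CPM in DSF (log2 0.59 ± 0.11, edgeR adjusted p = 0.000110), with 26.9 ± 1.99 CPM in LSF. Cry2 was at 33.1 and 34.9 CPM in BSF and 17.0 and 19.9 CPM in DSF (log2 0.88 ± 0.13, edgeR adjusted p = 1.99e-06), with 34.3 ± 1.78 CPM in LSF. Cry1 thus had its high values in BSF, with DSF and LSF near each other, while Cry2 had its low values in DSF, with BSF and LSF near each other. Bhlhe40, a repressor that competes for the same promoter elements, was at 268 and 267 CPM in BSF, 201 and 212 CPM in DSF and 181 ± 12.1 CPM in LSF (log2 0.38 ± 0.07 for BSF against DSF, edgeR adjusted p = 3.74e-05). It followed the order of Cry1 rather than that of Cry2.

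The 3 repressors that were lower in BSF were Per1, Nr1d1 and Nr1d2, the latter pair encoding the Rev-erb receptors. Per1 was at 12.9 and 14.04 CPM in BSF, 18.6 and 19.0 CPM in DSF and 30.0 ± 1.60 CPM in LSF (log2 -0.48 ± 0.15 for BSF against DSF, edgeR adjusted p = 0.0274). Nr1d1 was at 47.4 and 45.02 CPM in BSF, 54.0 and 58.7 CPM in DSF and 97.5 ± 4.35 CPM in LSF (log2 -0.29 ± 0.10, edgeR adjusted p = 0.0431). Nr1d2 was at 9.69 and 11.8 CPM in BSF, 16.4 and 15.965 CPM in DSF and 31.4 ± 2.92 CPM in LSF (log2 -0.58 ± 0.18, edgeR adjusted p = 0.0227). All 3 genes were highest in LSF and had both BSF libraries below both DSF libraries. Their calls were the least firm of the clock genes: none passed DESeq2's Wald test (adjusted p 0.0750, 0.0882 and 0.0620), Per1 and Nr1d1 lost theirs without any 1 of the 4 libraries (edgeR adjusted p up to 0.173 and 0.300), and Nr1d2 lost its call without BSF 1, DSF a or DSF b (up to 0.222).

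Among output factors, which carry the clock's phase to other genes, 2 of 8 were called, both of the PAR bZIP family. Tef was at 71.7 and 65.2 CPM in BSF and 36.4 and 36.5 CPM in DSF (log2 0.90 ± 0.10, edgeR adjusted p = 3.91e-10), with 84.9 ± 5.48 CPM in LSF. Hlf was at 8.35 and 9.47 CPM in BSF and 4.16 and 3.43 CPM in DSF (log2 1.23 ± 0.25, edgeR adjusted p = 0.000285), with 9.97 ± 1.17 CPM in LSF. Tef and Hlf were thus lowest in DSF among the 3 patterns. The other family member, Dbp, was at 8.48 and 7.24 CPM against 8.20 and 8.05 CPM (log2 -0.05 ± 0.22), with overlapping groups. Arntl was at 33.9 and 33.3 CPM in BSF and 28.9 and 30.7 CPM in DSF (log2 0.17 ± 0.12, edgeR adjusted p = 0.369), and Clock at 99.1 and 105 CPM against 95.0 and 91.3 CPM (edgeR adjusted p = 0.269). For the core activators the two-sided test thus found no difference at this spread. Npas2, a stand-in for Clock, was at 32.2 and 32.9 CPM against 40.5 and 37.999 CPM (edgeR adjusted p = 0.117), and Per3 at 9.56 and 13.5 CPM against 7.81 and 7.78 CPM (edgeR adjusted p = 0.0615). Per3 passed as higher with the con libraries left out, with the fit limited to BSF and DSF, and without BSF 1 (edgeR adjusted p = 0.0301, 0.0284 and 0.0321). Ciart, Bhlhe41, Rora, Csnk1d, Csnk1e, Nfil3, Wee1, Usp2, Tsc22d3 and Nampt did not pass either, with log2 differences from -0.54 (Ciart) to 0.20 (Nfil3). Of these, Tsc22d3 passed as higher with con left out, with the fit limited to BSF and DSF, and with library totals as the scale (edgeR adjusted p = 0.0212, 0.0197 and 0.0491). By list, 7 of 10 repressors and 2 of 8 output factors were called, beside 12% of all genes.

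**Figure D3:**
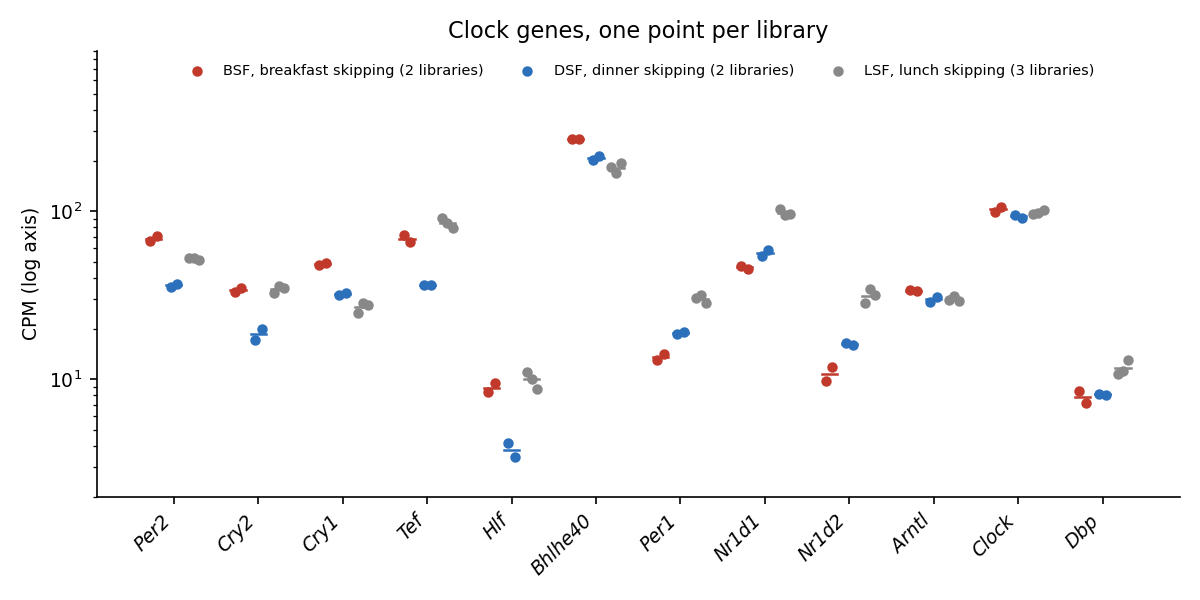
Levels of 12 clock genes (CPM, log axis), 1 point per library with a bar at the group mean, for BSF (red), DSF (blue) and LSF (grey). Per2, Cry2, Cry1, Tef, Hlf and Bhlhe40 lie higher in BSF than in DSF, Per1, Nr1d1 and Nr1d2 lower, and Dbp overlaps.

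The starts of 2 clock genes that moved in opposite directions, Cry1 up and Per1 down in BSF, are printed because both hold the E-box to which Clock and Arntl bind. The sequences are the 250 bases before the start in RefSeq on GRCm38.p6, 5′ to 3′ on the gene's strand, and capitals mark the E-box (CACGTG) and, in Per1, also the D-box (TTATGNAA), the element read by Dbp, Tef and Hlf. The Cry1 stretch is chr10:85185055-85185304 (minus strand) and the Per1 stretch chr11:69098699-69098948 (plus strand).
Cry1: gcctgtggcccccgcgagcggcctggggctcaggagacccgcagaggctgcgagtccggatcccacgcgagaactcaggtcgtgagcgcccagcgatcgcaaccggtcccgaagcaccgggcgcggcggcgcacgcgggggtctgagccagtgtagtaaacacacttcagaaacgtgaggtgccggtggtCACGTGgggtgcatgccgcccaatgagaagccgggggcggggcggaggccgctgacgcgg
Per1: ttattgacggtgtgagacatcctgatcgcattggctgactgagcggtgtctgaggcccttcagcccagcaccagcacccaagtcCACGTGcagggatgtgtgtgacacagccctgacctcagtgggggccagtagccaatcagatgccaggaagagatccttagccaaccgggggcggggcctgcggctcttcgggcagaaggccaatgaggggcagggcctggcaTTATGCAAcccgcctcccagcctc
The E-box begins at position -60 in Cry1 and -166 in Per1, and the D-box of Per1 at -24. Per1 has a further RefSeq start, and the 300 bases around it (chr11:69099902-69100201) hold neither element. Of the 10 called clock genes, 7 had an entry in the promoter table, and 3 of those (Cry1, Per1 and Tef) held an E-box on either strand within 300 bases around the start, as did 7.15% of all 32851 promoters and 11.2% of 11072 tested genes. The D-box letters occurred in 3.38% of promoters. Genes with the same element thus moved in both directions.

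Genes that handle foreign chemicals moved apart: beside the rise of Cyp1a1, glutathione transferases and several other oxidases were lower in BSF. Of 43 xenobiotic metabolism genes tested, 10 were lower and 4 higher, with a median log2 difference of 0.0223. That was 32.6% of the list, beside 12% of all genes. Leaving out 1 library gave 7 to 9 lower, and 3, 1, 2 and 2 higher without BSF 1, BSF 2, DSF a and DSF b. Gstm3 (chr3:107963696-107969283, minus strand), a glutathione transferase, was at 268 and 278 CPM in BSF, 620.2 and 619 CPM in DSF and 525 ± 10.5 CPM in LSF. It was 2.27-fold lower in BSF than in DSF (log2 -1.18 ± 0.06, edgeR adjusted p = 4.69e-22), and the replicates of each group were nearly equal. Gstm1, of the same family, was at 74.7 and 80.5 CPM in BSF and 158 and 147 CPM in DSF (edgeR adjusted p = 2.04e-14), and at 254 ± 11.6 CPM in LSF. Cyp2c55, an oxidase, was at 21.5 and 24.2 CPM in BSF and 65.7 and 68.2 CPM in DSF, 2.92-fold lower (edgeR adjusted p = 6.12e-16), with 90.6 ± 3.90 CPM in LSF. For these 3 genes BSF was the lowest of the patterns. Cyp3a25, a drug oxidase, was lower at 92.6 and 125 CPM against 219 and 239 CPM (edgeR adjusted p = 4.82e-14), and the efflux pump gene Abcb1a at 35.7 and 33.1 CPM against 55.4 and 57.8 CPM (edgeR adjusted p = 2.62e-07). Cyp2j6, an epoxygenase, was higher at 97.3 and 91.0 CPM against 60.0 and 62.4 CPM (edgeR adjusted p = 1.99e-07). Oxidases thus moved both ways. Cyp3a11 was at 162 and 174 CPM in BSF and 188 and 167 CPM in DSF, with overlapping groups, and at 723 ± 25.6 CPM in LSF. The Gstm, Cyp2c and Cyp3a families hold close copies whose reads may be shared, so their values are uncertain.

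Of 10 aryl hydrocarbon receptor genes tested, 2 were higher in BSF, Cyp1a1 and the related oxidase gene Cyp1a2, and none was lower. That was 20% of the list, beside 12% of all genes. Cyp1a2 was at 2.15 and 1.78 CPM in BSF and at 0 and 0.528 CPM in DSF, from 32 and 4 counts per group (edgeR adjusted p = 0.00369), and lost its call without DSF a (edgeR adjusted p = 0.158). Ahr, the receptor, Ahrr, its repressor, and the target genes Tiparp and Nqo1 did not pass the test. DESeq2's Wald test and voom each called 4 genes of this list. The 250 bases before the start of Cyp1a1 (RefSeq, GRCm38.p6, chr9:57697363-57697612, plus strand, 5′ to 3′) are printed because its rise led those of genes with at least 5 CPM outside the other-tissue lists, with capitals on the core of the receptor's response element (GCGTG).
Cyp1a1: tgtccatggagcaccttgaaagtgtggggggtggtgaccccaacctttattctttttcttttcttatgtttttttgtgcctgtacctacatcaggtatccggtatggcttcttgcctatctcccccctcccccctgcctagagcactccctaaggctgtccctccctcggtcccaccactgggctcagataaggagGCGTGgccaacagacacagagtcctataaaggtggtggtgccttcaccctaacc
That core begins at -54, and being short it also stood in 32.4% of promoters and in those of 53.6% of tested genes. It was searched on both strands after the values had been seen.

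Several genes that assemble chylomicrons were higher in BSF, while genes of sterol transport were lower. Of 30 lipid absorption genes tested, 6 rose and 5 fell (36.7% called, beside 12% of all genes), with a median log2 difference of 0.0537. Apoa4 (chr9:46240696-46243459, plus strand), an apolipoprotein made during fat absorption, was at 14045 and 14012 CPM in BSF, 9475 and 9286 CPM in DSF and 14224 ± 205 CPM in LSF. It was 1.496-fold higher in BSF than in DSF (log2 0.58 ± 0.05, edgeR adjusted p = 2.00e-12), and the BSF and LSF levels were close. Apob, the structural protein of the chylomicron, was at 2727 and 2837 CPM in BSF, 2066 and 2022 CPM in DSF and 3149 ± 32.4 CPM in LSF (log2 0.44 ± 0.06 for BSF against DSF, edgeR adjusted p = 3.22e-08). For Dgat2, which completes triglyceride synthesis, the values were 217 and 212 CPM in BSF, 136 and 144 CPM in DSF and 249 ± 9.12 CPM in LSF (edgeR adjusted p = 2.96e-09). DSF was the low pattern in all 3 genes. Apoa1, the main protein of high-density lipoprotein, was also higher, at 6751 and 6720.0 CPM against 5445 and 5339.6 CPM (edgeR adjusted p = 2.33e-05). Abcg8, a subunit of the pump that returns plant sterols to the lumen, was lower in BSF, at 153 and 181 CPM against 226 and 242 CPM (log2 -0.48 ± 0.07, edgeR adjusted p = 1.91e-06). Its partner Abcg5 was lower too, at 102 and 120.0 CPM against 139 and 147 CPM (edgeR adjusted p = 0.000540), but not without BSF 1 (0.0893). Npc1l1, which takes up cholesterol, was at 518 and 527 CPM against 631 and 628 CPM (edgeR adjusted p = 0.00102). Uptake and return of sterols were thus lower side by side at the transcript level. The lower count was 2 without BSF 1 and 3 without BSF 2 or DSF a.

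Of 39 genes of fatty acid oxidation and PPARA, the receptor that fatty acids activate, 9 were higher and 2 lower, with a median of 0.00302. That was 28.2% of the list, beside 12% of all genes. Acot1, a thioesterase, was at 45.8 and 39.4 CPM in BSF, 19.9 and 19.5 CPM in DSF and 68.8 ± 2.19 CPM in LSF (log2 1.11 ± 0.12, edgeR adjusted p = 1.31e-10). Fabp1, the fatty acid binding protein, was at 82.1 and 96.4 CPM in BSF and 54.0 and 60.3 CPM in DSF (edgeR adjusted p = 7.46e-07), and Acaa1b, a peroxisomal thiolase, at 53.7 and 50.1 CPM against 35.6 and 35.4 CPM (edgeR adjusted p = 0.000183). Each of these had all BSF values above all DSF values. The fasting marker Pdk4, which slows glucose oxidation, did not pass, at 24.9 and 31.0 CPM against 37.3 and 28.9 CPM, and was far higher in LSF, at 108 ± 2.57 CPM. The higher count was 5 without BSF 1, DSF a or DSF b and 6 without BSF 2, and the lower count 1 without DSF a and 0 without each other library.

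By edgeR, 28.6% of the fatty acid synthesis list and none of the cholesterol synthesis list were called, beside 12% of all genes. Of 14 fatty acid synthesis genes, 3 were lower and 1 higher, and 1 was lower without any single library. Scd2, a desaturase, was at 427 and 417 CPM in BSF, 536 and 549 CPM in DSF and 263 ± 8.14 CPM in LSF (log2 -0.36 ± 0.06, edgeR adjusted p = 2.10e-05). Srebf1, a regulator of this pathway, was higher at 182 and 189 CPM against 159 and 142 CPM (edgeR adjusted p = 0.00331), but not without BSF 2 or DSF b (up to 0.165). Regulator and desaturase thus moved in opposite directions. Of 24 cholesterol synthesis genes none was called by edgeR, none by DESeq2's Wald test and 1 by voom, with a median of -0.132. In edgeR 10 of them had an unadjusted p under 0.05, 8 lower and 2 higher. With the fit limited to BSF and DSF, edgeR called 4 of them lower and 2 higher.

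Fructose genes were among the sugar genes that rose. Of 15 genes of sugar digestion and transport, 6 were higher in BSF and 3 lower (60% called, beside 12% of all genes). Slc2a5, the fructose transporter, was at 74.4 and 68.9 CPM in BSF, 49.3 and 52.5 CPM in DSF and 111 ± 5.79 CPM in LSF (edgeR adjusted p = 0.000201), and Tkfc, which phosphorylates glyceraldehyde, was at 230.2 and 238 CPM against 191 and 179 CPM (edgeR adjusted p = 0.000277). DSF had the lowest values of Slc2a5 among the 3 patterns. Slc5a4a, a member of the sodium-glucose carrier family with a close copy, was lower at 4.71 and 4.23 CPM against 7.42 and 8.58 CPM (edgeR adjusted p = 0.0117), but not without BSF 2 or DSF b (up to 0.134). Without BSF 2 or DSF b the higher count was 3 and the lower 0, and without BSF 1 the lower count was 1.

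Of 10 gluconeogenesis genes, 3 were higher and 2 lower (50% called, beside 12% of all genes). Fbp1, fructose bisphosphatase, was at 14.7 and 16.8 CPM in BSF, 7.16 and 9.37 CPM in DSF and 24.6 ± 5.40 CPM in LSF (log2 0.94 ± 0.20, edgeR adjusted p = 0.000728). G6pc, which releases free glucose, was at 132 and 146 CPM against 109 and 114 CPM (edgeR adjusted p = 0.00258), and lost its call without BSF 2 or DSF a (up to 0.142). Without DSF a no gluconeogenesis gene was called in either direction, and the edgeR adjusted p of Fbp1 was then 0.0606. Pck1, the entry enzyme of the pathway, was slightly lower in BSF at 54.5 and 60.2 CPM against 71.2 and 69.5 CPM (edgeR adjusted p = 0.0152, up to 0.207 without BSF 1, DSF a or DSF b). In LSF Pck1 was at 489 ± 5.70 CPM, far above both. The lower count was 1 without each other library.

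**Figure D4:**
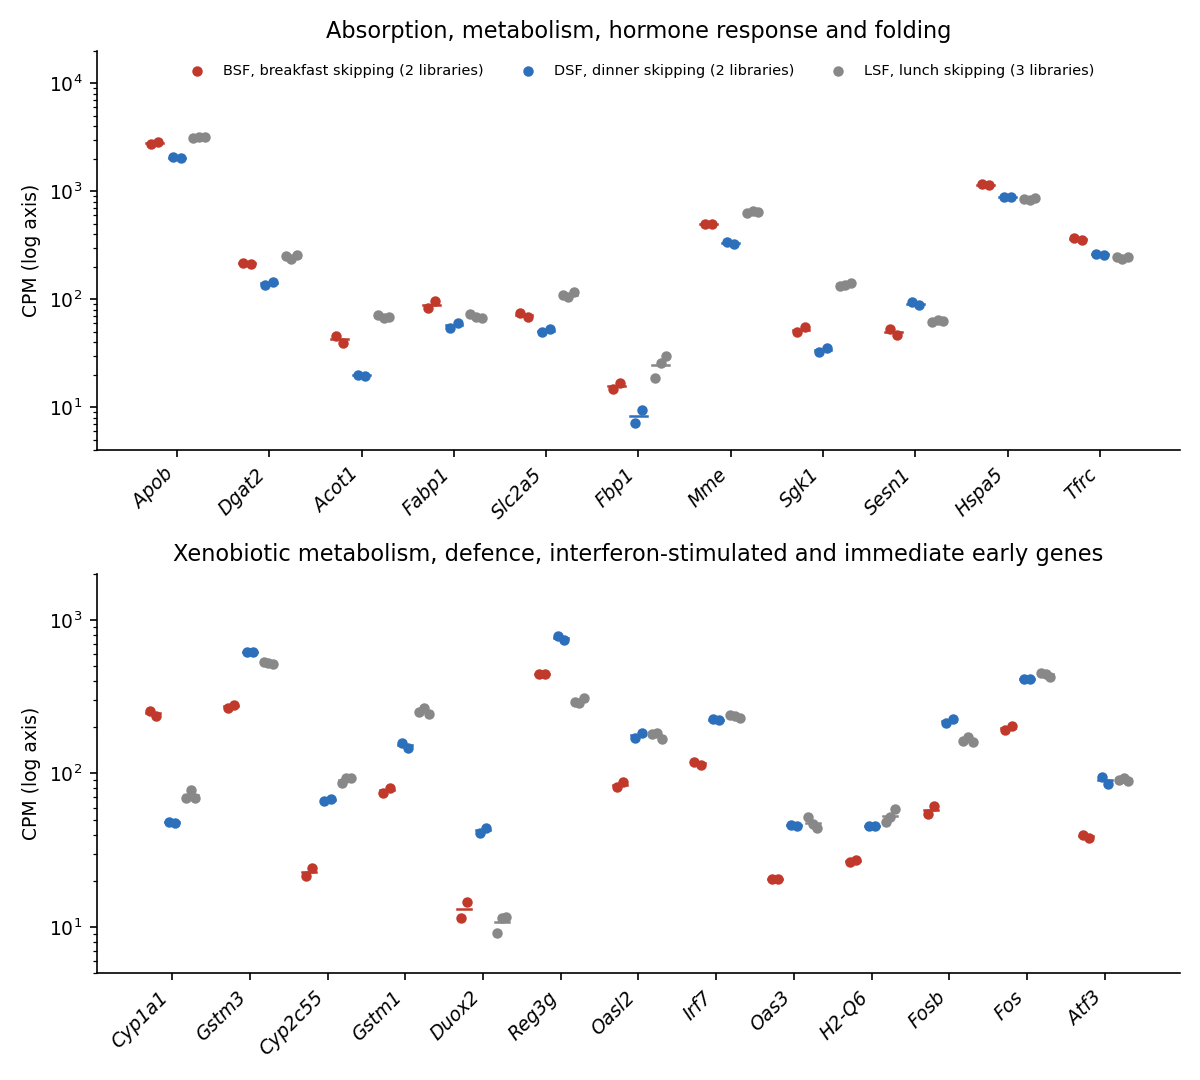
Levels of 24 genes (CPM, log axes), 1 point per library with a bar at the group mean, for BSF (red), DSF (blue) and LSF (grey); the upper panel holds absorption, metabolism, hormone response and folding genes, the lower panel xenobiotic, defence, interferon-stimulated and immediate early genes. Acot1, Slc2a5 and Sgk1 are lowest in DSF and highest in LSF, while Oasl2, Irf7, Oas3 and Fos have DSF and LSF together above BSF.

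Of 19 amino acid and peptide transporters, 5 were lower in BSF and 2 higher (36.8% called, beside 12% of all genes). The lower count was 1, 4, 3 and 1 without BSF 1, BSF 2, DSF a and DSF b, and none was higher without any 1 of them. Slc43a2, a carrier of neutral amino acids, was at 627 and 654 CPM in BSF and 782 and 767 CPM in DSF (edgeR adjusted p = 0.00163, 0.0524 without BSF 1). Slc6a19, the main brush border carrier of neutral amino acids, was at 257 and 259.8 CPM against 303 and 319 CPM (edgeR adjusted p = 0.00320, 0.0840 without DSF b), with 543 ± 4.09 CPM in LSF. Slc15a1, the peptide carrier, was at 52.1 and 61.7 CPM against 67.5 and 76.3 CPM (edgeR adjusted p = 0.0175, up to 0.301 without BSF 1 or DSF b), with 129.8 ± 3.46 CPM in LSF. For the latter pair the difference was small beside the distance of both groups from LSF.

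Among 15 brush border peptidases 2 were higher and 3 lower, the lower count being 1 without either BSF library and 2 without either DSF library, and the higher count 1 without DSF b. The called share was 33.3%, beside 12% of all genes. Mme, neprilysin, was at 499 and 498 CPM in BSF, 339.8 and 328 CPM in DSF and 639 ± 12.7 CPM in LSF (log2 0.58 ± 0.07, edgeR adjusted p = 8.38e-09). Naaladl1, a dipeptidase, was at 202 and 208 CPM in BSF and 270.2 and 259 CPM in DSF (log2 -0.37 ± 0.07, edgeR adjusted p = 6.32e-05). These opposite changes kept their calls without any 1 library.

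Regulators of fasting and hormone response split as well. Sesn1, a FOXO and p53 target that restrains mTORC1, was at 52.8 and 46.8 CPM in BSF, 93.3 and 88.0 CPM in DSF and 62.8 ± 1.398 CPM in LSF (log2 -0.87 ± 0.09, edgeR adjusted p = 5.83e-11). DSF had the high values here, apart from both other patterns. In its list of 23 fasting, insulin and FOXO regulators, 2 were higher and 3 lower (21.7% called, beside 12% of all genes). Pik3r1, a subunit of the kinase that insulin activates, and Foxo4, a FOXO factor, each lost the call without any 1 of the 4 libraries (edgeR adjusted p up to 0.231 and 0.268). Without a single library no list member was higher, and 1 was lower without BSF 1, BSF 2 or DSF a.

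Of 14 genes of the glucocorticoid receptor and its targets, 2 were higher and 3 lower (35.7% called, beside 12% of all genes). Sgk1 (chr10:21882184-21999903, plus strand), a kinase induced by corticosteroids, was at 49.3 and 55.5 CPM in BSF, 32.7 and 35.2 CPM in DSF and 137 ± 3.72 CPM in LSF (log2 0.63 ± 0.10, edgeR adjusted p = 5.47e-06). Fkbp5, a chaperone of the receptor and its target, was at 34.5 and 35.3 CPM in BSF, 23.2 and 24.5 CPM in DSF and 60.2 ± 3.45 CPM in LSF (edgeR adjusted p = 0.00118). Both kept the order DSF, BSF, LSF without overlap. Dusp1, a phosphatase that corticosteroids and immediate early signals induce, went against them at 26.9 and 28.2 CPM in BSF and 55.0 and 54.6 CPM in DSF (log2 -0.99 ± 0.11, edgeR adjusted p = 2.12e-10). Mt2, a metallothionein, was at 5.92 and 5.91 CPM against 10.9 and 8.05 CPM (edgeR adjusted p = 0.0270, up to 0.396 without BSF 1, BSF 2 or DSF a), and Per1 was the other lower member. The lower count was 1 without BSF 1, BSF 2 or DSF a and 2 without DSF b.

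Several antimicrobial defence genes had their high values under dinner skipping. Of 17 tested, 6 were lower in BSF and 1 higher (41.2% called, beside 12% of all genes), and the median log2 difference was -0.433. Duox2 (chr2:122279247-122298449, minus strand), the oxidase that releases hydrogen peroxide at the mucosal surface, was at 11.4 and 14.6 CPM in BSF, 41.1 and 44.2 CPM in DSF and 10.7 ± 1.34 CPM in LSF. It was 3.24-fold lower in BSF than in DSF (log2 -1.70 ± 0.13, edgeR adjusted p = 5.36e-15). Nos2, the inducible nitric oxide synthase, showed the same contrast at 0.942 and 1.34 CPM in BSF, 4.55 and 6.33 CPM in DSF and 1.35 ± 0.137 CPM in LSF (edgeR adjusted p = 1.33e-05). In both genes LSF lay beside BSF and apart from DSF, and LSF against DSF also passed the test (edgeR adjusted p = 2.40e-19 for Duox2 and 3.68e-06 for Nos2).

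Reg3g, a lectin that kills Gram-positive bacteria, was at 447 and 448 CPM in BSF, 781 and 739 CPM in DSF and 296 ± 10.5 CPM in LSF (log2 -0.76 ± 0.06, edgeR adjusted p = 1.25e-14). Reg3b, its relative, was at 436 and 431 CPM in BSF, 669 and 593 CPM in DSF and 369 ± 5.97 CPM in LSF (edgeR adjusted p = 1.28e-09). Both lectins were ordered LSF, BSF, DSF. Reg1, a further family member that is also on the pancreatic list, was the 1 gene higher in BSF, at 184 and 186 CPM against 140.5 and 128 CPM (edgeR adjusted p = 1.09e-06). The lower count was 4 without BSF 2 or DSF a and 5 without BSF 1 or DSF b.

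Interferon-stimulated genes were broadly lower in BSF. Of 55 tested, 35 were lower and none higher (none even at an unadjusted p under 0.05), beside 6.26% of all genes lower, and the median log2 difference was -0.57. Oasl2 (chr5:114896936-114912234, plus strand), of the oligoadenylate synthetase family, was at 81.6 and 87.6 CPM in BSF, 171 and 184 CPM in DSF and 176 ± 8.71 CPM in LSF (log2 -1.07 ± 0.08, edgeR adjusted p = 1.18e-16). Irf7, a master regulator of type I interferon, was at 119 and 114 CPM in BSF, 226 and 221 CPM in DSF and 236 ± 5.89 CPM in LSF (edgeR adjusted p = 2.56e-15). Oas3, a synthetase that senses viral RNA, was at 20.6 and 20.4 CPM in BSF, 46.2 and 45.7 CPM in DSF and 47.6 ± 4.01 CPM in LSF (edgeR adjusted p = 4.47e-11). In these 3 genes BSF stood below the other patterns, and LSF against DSF did not pass the test. Isg15, an interferon-induced ubiquitin-like protein, was instead graded, at 25.6 and 21.5 CPM in BSF, 50.9 and 48.2 CPM in DSF and 37.3 ± 1.01 CPM in LSF (edgeR adjusted p = 3.73e-10 for BSF against DSF). Ifi44, a further interferon-induced gene, was at 9.56 and 8.36 CPM in BSF and 23.4 and 26.3 CPM in DSF, with 12.5 ± 1.01 CPM in LSF, nearer to BSF (edgeR adjusted p = 1.28e-09 for BSF against DSF). The other called members ranged from -0.25 (Ifi35) to -1.43 (Gbp3) in log2 difference, and 25 to 27 members were called lower without any 1 library. The Oas, Gbp and Ifit families hold close copies and are uncertain singly.

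The starts of Isg15 and Oas3 are printed because they show the element through which interferon acts. Each sequence is the 250 bases before the start (RefSeq, GRCm38.p6, minus strand, 5′ to 3′), at chr4:156200819-156201068 for Isg15 and chr5:120777660-120777909 for Oas3. Capitals mark overlapping copies of GAAANNGAA, the core of the interferon response element.
Isg15: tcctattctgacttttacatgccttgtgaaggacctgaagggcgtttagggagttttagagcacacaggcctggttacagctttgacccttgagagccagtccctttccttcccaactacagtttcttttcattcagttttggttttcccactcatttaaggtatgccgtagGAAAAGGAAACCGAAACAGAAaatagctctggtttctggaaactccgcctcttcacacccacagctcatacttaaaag
Oas3: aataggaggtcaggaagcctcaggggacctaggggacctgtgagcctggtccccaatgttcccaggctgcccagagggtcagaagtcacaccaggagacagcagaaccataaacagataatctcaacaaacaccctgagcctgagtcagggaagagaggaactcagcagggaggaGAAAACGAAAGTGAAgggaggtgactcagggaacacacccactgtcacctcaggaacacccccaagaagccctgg
Copies begin at -78, -72 and -66 in Isg15 and at -75 and -69 in Oas3. This element was searched after the values had been seen, on both strands of the 300 bases around each start. It stood in 15 of the 23 lower interferon-stimulated genes with a promoter entry and in 12 of the 17 that did not pass the test, beside 8.56% of all promoters and 8.63% of tested genes.

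Genes that load peptides on MHC class I were lower too, with 10 of 22 called lower, none higher and a median of -0.283. That was 45.5% of the list, beside 12% of all genes. H2-Q6, a non-classical class I gene, was at 26.5 and 27.4 CPM in BSF, 45.5 and 45.7 CPM in DSF and 52.9 ± 5.20 CPM in LSF (log2 -0.76 ± 0.12, edgeR adjusted p = 1.86e-06). H2-Q4, of the same cluster, was at 91.1 and 82.0 CPM in BSF and 122 and 119.7 CPM in DSF (edgeR adjusted p = 1.24e-05). Tap1, the peptide pump, was at 86.4 and 86.9 CPM against 124 and 107 CPM (edgeR adjusted p = 0.000261), and lost its call without DSF a (0.0692). The count fell to 7, 5, 2 and 8 without BSF 1, BSF 2, DSF a and DSF b. The H2-Q genes are near copies of one another and are uncertain singly. For class II the markers H2-Ab1 (42.5 and 44.0 CPM against 42.9 and 35.1 CPM) and Cd74 (132 and 136 CPM against 143 and 144 CPM) did not pass the test, although their regulator Ciita was higher, at 26.4 and 27.3 CPM against 17.6 and 16.8 CPM (edgeR adjusted p = 0.000966).

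Of 21 epithelial chemokines and cytokines, 5 were lower and none higher (23.8% called, beside 12% of all genes). Il33, an alarmin, was at 13.9 and 15.3 CPM in BSF and 32.5 and 27.7 CPM in DSF (log2 -1.04 ± 0.15, edgeR adjusted p = 3.60e-07). Ccl5, a T cell chemokine also made by lymphocytes, was at 5.11 and 5.35 CPM against 12.6 and 9.50 CPM (edgeR adjusted p = 0.000912, 0.0732 without DSF a). The count was 2, 3, 1 and 2 without BSF 1, BSF 2, DSF a and DSF b. Leukocyte transcripts were lower in the same libraries (313 and 339.8 CPM in sum against 499 and 485 CPM), among them Gzmb, a granzyme, at 50.1 and 53.4 CPM against 90.9 and 85.1 CPM and the T cell co-receptor gene Cd8a at 34.3 and 37.2 CPM against 61.7 and 57.8 CPM. Their part in the lower interferon, class I and chemokine values was not tested.

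Immediate early genes, which fire within minutes of a stimulus, tissue handling included, were lower in BSF in 23 of 33 tested. None was higher, and the median log2 difference was -0.603. The called share was 69.7%, beside 12% of all genes. Fosb (chr7:19302696-19310051, minus strand), a subunit of the AP-1 factor, was at 54.1 and 61.5 CPM in BSF, 214 and 228 CPM in DSF and 165 ± 5.93 CPM in LSF. It was 3.81-fold lower in BSF than in DSF (log2 -1.93 ± 0.08, edgeR adjusted p = 1.92e-27), with LSF between them. Fos, its relative, was at 193 and 204 CPM in BSF, 413 and 411 CPM in DSF and 441 ± 14.4 CPM in LSF (edgeR adjusted p = 7.58e-19). Egr1, a zinc finger factor, was at 99.2 and 113 CPM in BSF, 228 and 223 CPM in DSF and 289 ± 7.59 CPM in LSF (edgeR adjusted p = 3.82e-18). BSF was the low pattern in each, and its replicates differed by far less than the groups did. Atf3, a stress-induced factor, was at 39.7 and 38.1 CPM in BSF and 94.6 and 85.6 CPM in DSF (edgeR adjusted p = 3.00e-16). Of the Jun family, Jun was at 267 and 282 CPM against 440.2 and 457 CPM (edgeR adjusted p = 2.01e-12), and Junb at 301 and 296 CPM against 479 and 478 CPM (edgeR adjusted p = 6.54e-11). Without any 1 library 19 to 22 members were called lower. Fos and Atf3 are also on the list of villus tip genes, whose 3 lower members were all immediate early genes (the other was Klf6). The muscle, fibroblast and leukocyte lists were lower in the same libraries, and their part was not tested.

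Several chaperones of the cytosol and of the endoplasmic reticulum were modestly higher in BSF. Of 22 heat shock chaperones, 6 were higher and 3 lower (40.9% called, beside 12% of all genes). Hspa8, the constitutive Hsp70, was at 2216 and 2198 CPM in BSF, 1621 and 1554 CPM in DSF and 2127 ± 17.7 CPM in LSF (log2 0.48 ± 0.05, edgeR adjusted p = 1.96e-09). Hsph1, its exchange factor, was at 60.3 and 62.5 CPM against 44.9 and 42.0 CPM (edgeR adjusted p = 0.000421). Replicates of both lay close together and the groups apart. The lower members were Hspb1, a small heat shock protein, at 3.63 and 3.23 CPM against 10.3 and 10.3 CPM (edgeR adjusted p = 6.61e-06), Cryab, which muscle expresses, and Serpinh1, the collagen chaperone, at 22.3 and 21.2 CPM against 35.4 and 37.6 CPM (edgeR adjusted p = 1.49e-05). These 3 were lower together with the muscle and fibroblast lists, whose part was not tested. The higher count was 3 without DSF a and 4 without each other library.

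Of 27 unfolded protein response genes, 5 were higher and none lower (18.5% called, beside 12% of all genes). Hspa5, the chaperone BiP, was at 1160.1 and 1139 CPM in BSF, 877 and 886 CPM in DSF and 846 ± 13.4 CPM in LSF (log2 0.38 ± 0.06, edgeR adjusted p = 7.46e-07). Hyou1, a further chaperone of the same compartment, was at 339 and 335 CPM in BSF, 247 and 239.9 CPM in DSF and 231 ± 14.04 CPM in LSF (edgeR adjusted p = 2.17e-06). In both genes BSF stood above DSF and LSF, which lay close to each other. The count was 2, 3, 4 and 3 without BSF 1, BSF 2, DSF a and DSF b, but 11 where the fit held only the BSF and DSF libraries.

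Mineral and antioxidant genes gave calls in both directions. Tfrc, the transferrin receptor, was at 369.9 and 352 CPM in BSF, 263 and 259 CPM in DSF and 243 ± 3.84 CPM in LSF (log2 0.47 ± 0.07, edgeR adjusted p = 7.46e-07). Slc34a2, a phosphate carrier, was at 30.0 and 37.7 CPM in BSF and 52.6 and 59.0 CPM in DSF (log2 -0.71 ± 0.11, edgeR adjusted p = 3.11e-06). Fth1, the ferritin heavy chain, was at 1388 and 1428 CPM against 1735 and 1602 CPM (edgeR adjusted p = 0.00217), but lost its call without BSF 1 or DSF a (up to 0.131). A higher transferrin receptor and a lower ferritin transcript thus stood side by side. Calls made up 47.4% of the iron, zinc and calcium list, beside 12% of all genes. Of 19 iron, zinc and calcium genes, 3 were higher and 6 lower, the lower count being 1, 4, 1 and 5 and the higher count 3, 1, 2 and 2 without BSF 1, BSF 2, DSF a and DSF b.

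Of 21 NRF2 antioxidant genes, 3 were higher and 3 lower, and these counts fell to 0 to 1 higher and 1 to 2 lower without any 1 library. Gpx2, a glutathione peroxidase, was at 269.9 and 246 CPM in BSF, 356 and 336 CPM in DSF and 191 ± 9.59 CPM in LSF (log2 -0.42 ± 0.07, edgeR adjusted p = 2.06e-05). It thus had the order LSF, BSF, DSF, as the Reg3 lectins did. Calls made up 28.6% of the NRF2 list, beside 12% of all genes. Of 7 bile acid genes both subunits of the basolateral exporter were lower (28.6% called, beside 12% of all genes). Slc51b was at 16.7 and 16.4 CPM against 26.9 and 29.6 CPM (edgeR adjusted p = 0.000230), and Slc51a at 60.0 and 54.6 CPM against 67.5 and 71.0 CPM (edgeR adjusted p = 0.0299). Slc51a lost its call without BSF 2, DSF a or DSF b (up to 0.327).

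Called shares were 25% of Paneth, 18.8% of goblet, 18.2% of tuft and 15% of enteroendocrine genes tested, beside 12% of all genes. Of 18 stem cell and Wnt target genes none was called by edgeR (5 at an unadjusted p under 0.05), none by DESeq2 and 1 by voom. With the fit limited to BSF and DSF, edgeR called 2 of them higher and 1 lower. The stem cell gene Lgr5 was at 18.4 and 19.4 CPM against 14.3 and 15.8 CPM (edgeR adjusted p = 0.157). Enteroendocrine genes had 3 of 20 higher, with 2, 1, 1 and 2 without BSF 1, BSF 2, DSF a and DSF b. Scg2, a granin of hormone granules that neurons also express, was at 38.2 and 40.8 CPM in BSF and 24.1 and 23.1 CPM in DSF (log2 0.75 ± 0.12, edgeR adjusted p = 5.15e-06). It rose together with the brain list, whose part was not tested. Chgb, a further granin, was at 256 and 288 CPM against 223 and 227 CPM (edgeR adjusted p = 0.00258), but not without BSF 2 or DSF a (up to 0.189). Goblet cell genes had 3 of 16 higher and Paneth cell genes 2 of 12 higher and 1 lower. The lower Paneth gene was Lyz2 (log2 -0.96), which is also on the leukocyte list. It lost its call in DESeq2's Wald test (adjusted p = 0.0983). The part of leukocyte RNA in its fall was not tested. The log2 differences were 0.16 to 0.33 in the goblet genes Muc13, Agr2 and Fcgbp and 0.17 in the Paneth gene Lyz1. Agr2, Fcgbp, Lyz1 and the Paneth gene Itln1 each lost the call without any 1 library (edgeR adjusted p up to 0.217, 0.316, 0.276 and 0.268), and Muc13 without BSF 2, DSF a or DSF b (up to 0.265).

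Of 36 proliferation genes 3 were higher, and 1 without any single library. Ccnd2, a cyclin, was at 295 and 285 CPM in BSF and 226 and 237 CPM in DSF (log2 0.32 ± 0.07, edgeR adjusted p = 0.000398). Top2a and Mki67, markers of dividing cells, lost their calls without any 1 library (edgeR adjusted p up to 0.229 and 0.340). Krt20, a keratin of mature enterocytes, was higher at 652 and 666 CPM against 557 and 551 CPM (edgeR adjusted p = 0.00180). Of the proliferation list 8.33% were called, below the 12% of all genes. The villus tip and enterocyte maturation list had 3 of 16 higher and 3 lower (37.5% called, beside 12% of all genes). Among housekeeping groups, 2 of 78 cytosolic ribosomal protein genes and 2 of 78 nuclear-encoded respiratory chain genes were called, all 4 lower. That was 2.56% of each list, below the 12% of all genes, with medians of -0.101 and -0.0198. Cox6a2, the muscle form of a cytochrome oxidase subunit, was 1 of them, at 17.8 and 18.2 CPM against 34.3 and 36.7 CPM (edgeR adjusted p = 1.85e-07), together with the muscle list. Of 13 mitochondrially encoded genes 3 were lower, with a median of -0.16, and 0, 5, 2 and 0 without BSF 1, BSF 2, DSF a and DSF b. The called share of the mitochondrially encoded genes was 23.1%, beside 12% of all genes. Mitochondrial transcripts took 9.21 and 9.87% of counts in BSF and 9.94 and 10.45% in DSF.

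**Figure D5:**
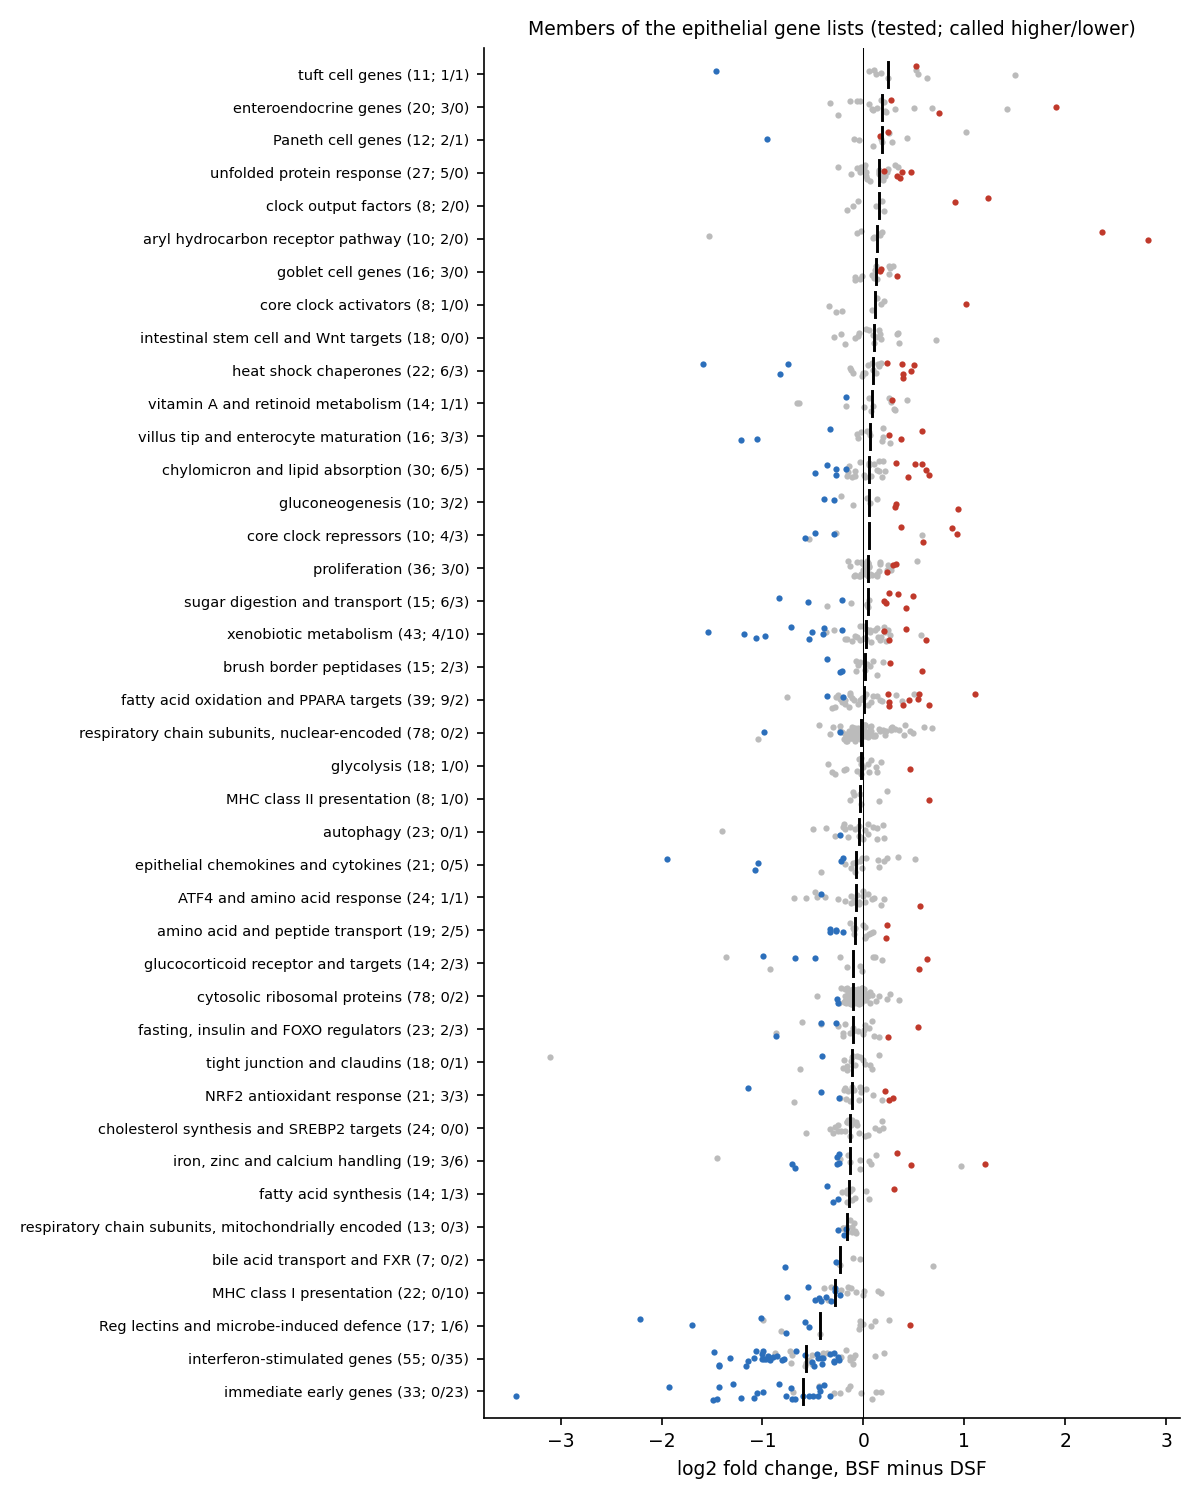
Log2 fold change of BSF against DSF for the tested members of 41 epithelial gene lists, ordered by their median (black bar); red points were called higher in BSF, blue points lower and grey points not called. Immediate early genes (median -0.603), interferon-stimulated genes (-0.57) and defence genes (-0.433) lie at one end, while most other lists centre near 0.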

How the data were processed

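The authors deposited raw read counts per gene symbol, whole numbers without normalization, for 21868 symbols in 13 libraries. Per the submitters' processing notes, the tools were STAR 2.7.2e, cutadapt 2.9, FastQC 0.11.8 and DESeq2 1.32.0 and the builds mm10 and GRCm38. Strand setting, annotation and the handling of reads that fit several genes are not given in the sources used here. Of the symbols, 21689 matched GENCODE M21 on GRCm38, the source of coordinates. In R 4.3.3, edgeR 4.0.16 kept 14300 genes (filterByExpr by group, 99.91% of counts), scaled libraries by TMM and fitted the 13 libraries together by quasi-likelihood on their groups (8 residual degrees of freedom); tests were two-sided and p-values adjusted by Benjamini-Hochberg over the 14300 genes. Values are TMM-scaled CPM, not divided by gene length, and SE is the absolute log2 fold change divided by the root of F. The script was tested on simulated data. Alternatives were DESeq2 1.42.0, limma 3.58.1 (voom), other scalings, filters and sample sets, and leaving out each library.

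Named genes were the 12 largest called rises and falls without overlap whose higher group reached 5 CPM, outside other-tissue lists, mitochondrial genes and unnamed gene models, the 3 smallest p of each list with at least 3 called members, the clock lists, and Epcam, Ptprc, H2-Ab1 and Cd74. Vil1, Cyp1a2, Cyp2j6, Cyp3a11, Cyp3a25, Abcb1a, Abcg5, Abcg8, Npc1l1, Apoa1, Pdk4, Slc5a4a, Slc15a1, Pck1, Mt2, Reg1, Isg15, Ifi44, Ciita, Jun, Junb, Hsph1, Slc51a, Slc51b, Lgr5, Krt20, Cox6a2 and genes given only by an extreme, an absence or few counts were named after their values were seen. Cdh1 and Hp were likewise named after their values were seen. Members and lists were chosen with earlier results of these data known. Some genes that the rule names are not reported here.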

Additional observations from a re-analysis of the deposited data

How the results depend on the processing

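Against 1720 genes called for BSF against DSF (825 higher, 895 lower, 587 at least 2-fold), DESeq2's Wald test called 1029 (443 higher, 586 lower, 330 at least 2-fold). An adjusted p of 0.01 left 906 (420, 486 and 366), with 2658 for BSF against LSF and 1476 for LSF against DSF. Genes of at least 10 CPM, a limit added after seeing the data, gave 1136 calls, 512 of them higher and 99 at least 2-fold. Leaving out 1 library gave 798 to 920 calls, 365 to 439 higher, 433 to 536 lower and 344 to 388 at least 2-fold, and 2557 to 3493 for BSF against LSF and 1288 to 1866 for LSF against DSF. Those fits have fewer libraries, and an arm left with 1 library is assumed to vary like the other groups. DESeq2's size factors (1662), library totals (1792), voom (1768), no filter on low counts (1741), con left out (2528), only the 2 groups in the fit (2537) and other-tissue genes left out (1649) stayed within 1.5 times of 1720. No gene called under both the main and another setting changed sign. Of the 120 called genes that the rule names, 82 kept the call under every alternative. No paired analysis was possible because the DSF columns carry numbers other than those of the labels. For BSF against LSF without DSF, a replicate block gave 3598 calls against 4063 unblocked, and same-numbered libraries did not deviate together (r = 0.00981 and 0.00466 across genes). Depth limits low genes: 3 counts over a group equal 0.183 CPM in BSF and 0.197 CPM in DSF, counting error only.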

Other observations

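A further group, 3 libraries labelled as breakfast skipping combined with control, belongs to no comparison above. Its Cyp1a1 level was 248 ± 10.96 CPM (SD, n = 3), its Per2 level 64.0 ± 3.63 CPM, its Fosb level 63.3 ± 1.12 CPM, its Oasl2 level 88.1 ± 2.59 CPM, its Duox2 level 13.99 ± 1.48 CPM and its Apoa4 level 14163 ± 634 CPM. For these 6 genes the values lie near those of the BSF libraries. Other genes did not: Ccn2 was at 27.8 ± 5.45 CPM against 1.48 and 1.89 CPM in BSF, Lox at 12.5 ± 5.52 CPM against 2.42 and 3.79 CPM, Thbs1 at 17.7 ± 8.07 CPM against 2.15 and 3.01 CPM, and Spp1 at 72.4 ± 32.5 CPM against 34.9 and 15.0 CPM. Its brain genes summed to 431.9 to 451.4 CPM and its heart and striated muscle genes to 462 to 525 CPM, while its fibroblast and matrix genes summed to 77.9 to 123 CPM against 64.8 and 65.7 CPM in BSF.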
